A study of Mus musculus with 8 samples.

Results

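Collagen chain genes encode the polypeptides of the collagens, the main structural proteins of the extracellular matrix. They were picked from 8 mouse heart arrays as every probe whose accession leads to a symbol of the form Col, a number, a and a number. Of the 44 such genes in the RefSeq gene table, 42 had a probe, among 19986 named genes on the array, and 61 probes measured them. A chain was kept where 4 or more of the 8 arrays marked 1 of its probes as well above background, and the brightest such probe stood for the gene. This left 31 chains: 8 fibrillar, 6 of the basement membrane and 17 of other kinds. The other 11 chains with a probe (Col2a1, Col6a4, Col6a5, Col9a3, Col10a1, Col11a1, Col13a1, Col17a1, Col19a1, Col24a1 and Col28a1) were well above background on at most 2 arrays. Col6a3 and Col12a1 had no matched probe and were not analysed here.

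The study set 4 control hearts against 4 hearts labelled dtg, all from male C57BL6 mice. Control mice were Cre positive without the floxed receptor gene, and dtg mice were merCremer/+ IGFloxP/IGFloxP. merCremer is a Cre recombinase that acts once tamoxifen is present. Both groups were given 4OH-tamoxifen at an age of 8 months, 500 µg on each of 10 days in a row, a treatment aimed at exon 3 of IGF-1R, the receptor for insulin-like growth factor 1, and the hearts were taken 6 weeks later. The sources used here do not name the promoter that drives merCremer, and no group without Cre or without tamoxifen was analysed here. The labels do not say that each array holds a separate animal, so the tests reflect the spread among these 8 samples alone, part of which could be technical.

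A collagen molecule is built from chains wound around each other in a triple helix, and the chains of one molecule can come from different genes. Fibrillar collagens form the fibres that carry tension between the muscle cells of the heart, and in cardiac fibrosis these fibres accumulate. Type IV collagens form the sheet-like network of basement membranes around capillaries and cardiomyocytes. The remaining families decorate fibrils, form beaded filaments, anchor membranes or span the cell membrane. Fibroblasts are the main source of fibrillar chains in the heart, and endothelial cells and cardiomyocytes contribute basement membrane chains.

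Values below are log2 processed signal minus the 75th percentile of the same array, so a chain at 0 is as bright as that percentile. A probe's brightness also depends on its sequence, so levels were compared between hearts and never between chains. Between 59.1% and 71.5% of all probes were well above background on an array, and none was saturated. Cardiomyocyte markers gave a summed signal of 3250 to 3450 times the 75th percentile in controls and 3190 to 3510 times in dtg hearts, with 9 of 9 markers well above background on every array. Igf1r itself, whose probe was not placed relative to exon 3 here and so cannot check the deletion, averaged 0.45 ± 0.40 in controls and 0.02 ± 0.33 in dtg hearts (SD, n = 4 each), with overlapping groups. The header barcodes placed controls 1 and 2 and dtg 1 and 4 on 1 slide, called slide 1 here, and controls 3 and 4 and dtg 2 and 3 on slide 2.

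Stretches before the starts of Col1a2 and Col3a1, and the shared start of Col4a1 and Col4a2, are shown because the results below turn on these genes. Col4a1 and Col4a2 had the most similar pattern over hearts among the pairs examined, and Col3a1 and Col1a2 encode fibrillar chains with different patterns. The sequences are from RefSeq (GRCm38.p6), 5′ to 3′ on the plus strand, with capitals marking a CCAAT in Col1a2, a TATAAA in Col3a1 and a GGGCGG in the bases where Col4a1 and Col4a2 start. They span chr6:4505498-4505617 upstream of Col1a2, chr1:45311418-45311537 upstream of Col3a1, and chr8:11312805-11312826, where the annotated starts of Col4a1 (minus strand) and Col4a2 (plus strand) overlap by 22 bases.
Col1a2: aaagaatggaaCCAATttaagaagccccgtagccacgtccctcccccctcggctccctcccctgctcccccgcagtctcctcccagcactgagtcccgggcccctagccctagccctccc
Col3a1: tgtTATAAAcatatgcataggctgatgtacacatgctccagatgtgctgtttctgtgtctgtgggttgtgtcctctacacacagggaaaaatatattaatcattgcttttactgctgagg
Col4a1 and Col4a2 shared start: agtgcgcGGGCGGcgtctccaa
Each motif was searched on both strands in the 250 bases before the start, where 25 measured chains had a sequence. The GGGCGG marked in the shared start of Col4a1 and Col4a2 lies outside those bases and is not counted here. GGGCGG was found in 72.0% of these chains and in 54.1% of the 11782 promoters of all measured genes. CCAAT was found in 36.0% and 35.7%, and TATAAA in 8.00% (Col3a1 and Col11a2) and 8.32%. In these 250 bases Col1a2 also held a GGGCGG, Col4a1 a CCAAT, and Col4a2 a CCAAT and a GGGCGG. The TATAAA marked in Col3a1 lies at the end of its stretch farthest from the start. Whether any motif bears on the patterns over hearts was not tested. Col4a6 and Col4a5, also head to head, on chromosome X, have starts 1343 bases apart.

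No collagen chain differed between dtg and control hearts beyond the spread between hearts. Of the 31 chains 0 passed the adjusted threshold of 0.05 (limma with Benjamini-Hochberg adjustment over 21434 features; every chain had an adjusted p of 1.0), and 0 had an unadjusted p under 0.05. Over all features the shares were 0% and 0.746%. The latter comprised 0.616% with a higher and 0.131% with a lower mean in dtg hearts. The 4 dtg values lay wholly outside the 4 control values in 0 chains, against 0.519% of all features. The mean was higher in dtg hearts for 15 chains and lower for 16, where 55.4% of all features were higher. The median difference, dtg minus control, was -0.023 for the chains and 0.015 for all features. These signs belong to this scaling: with the array median in place of the 75th percentile, 11 chains were higher in dtg hearts and the median of all features was -0.065.

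The intervals say how large a difference these 8 hearts could have hidden. The 95% interval lay between a halving and a doubling, that is within 1 of 0 on the log2 scale, in 28 of the 31 chains, and within 0.5 of 0 in 13. The 3 exceptions were Col6a6, Col9a1 and Col25a1. A miss of the threshold does not show equal levels, and for the widest intervals the data allow a change of more than 2-fold.

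**Figure D1:**
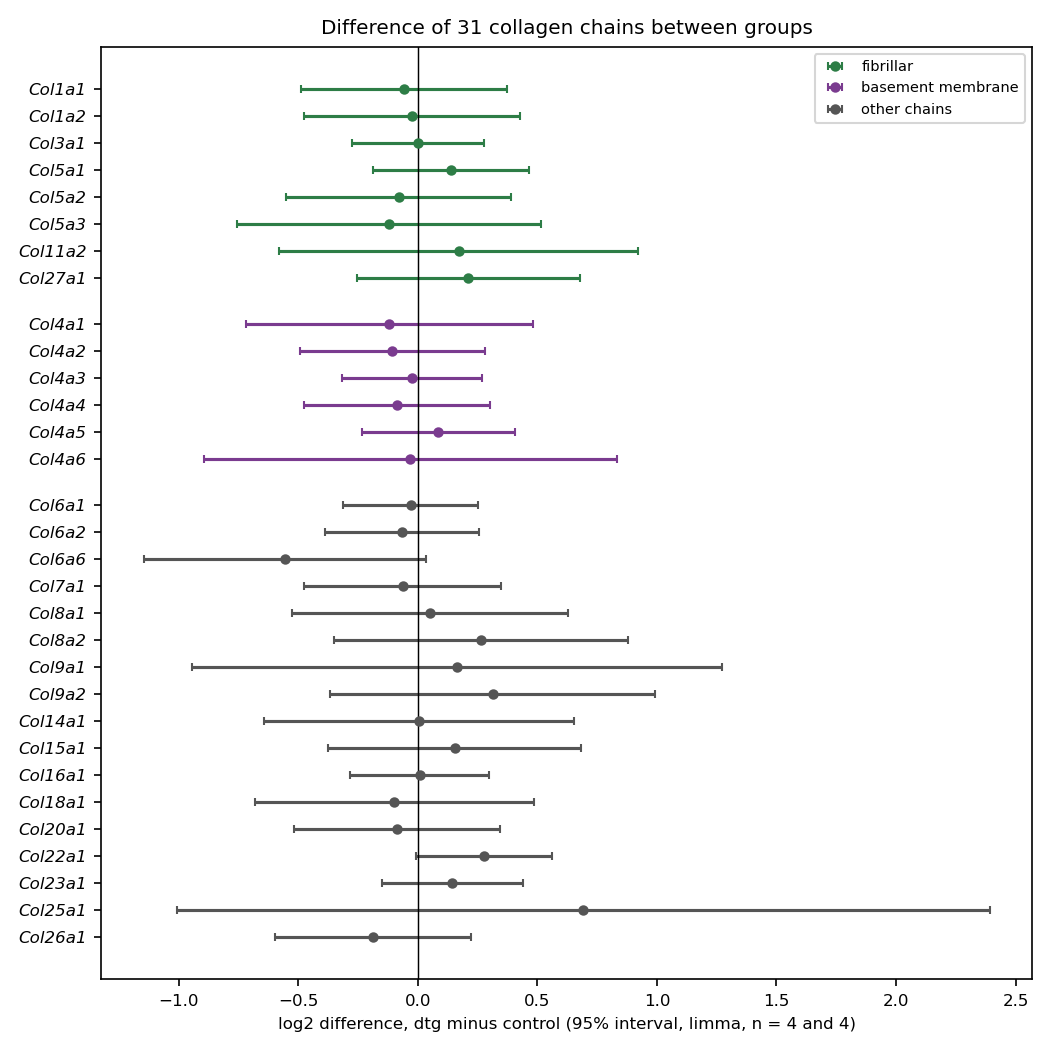
Difference of each of the 31 measured chains between groups, on the log2 scale (x axis, dtg minus control), by class (y axis); points are differences and bars 95% intervals from limma, n = 4 and 4. All 31 intervals include 0, and the one that reaches farthest is that of Col25a1.

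Among fibrillar chains, 4 of 8 were higher and 4 lower in dtg hearts, with a median difference of -0.011. Type I collagen, the most common fibrillar collagen, is built from the products of Col1a1 (accession NM_007742 on the array) and Col1a2. Col1a1 read 2.20, 2.18, 2.54 and 2.74 in controls 1 to 4 and 2.06, 2.62, 2.19 and 2.57 in dtg 1 to 4. The groups overlapped over nearly their whole range, and their means differed by -0.06 ± 0.19 (SE). Col1a2 read 4.05, 4.15, 4.08 and 3.54 in controls and 3.92, 4.36, 3.79 and 3.66 in dtg hearts. Its lowest values came from control 4 and dtg 4, and the groups differed by -0.02 ± 0.20 (SE).

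Col3a1 encodes the chain of type III collagen, which mixes with type I in cardiac fibres. It had the smallest spread of all 31 chains, with an SD over the 8 hearts of 0.13. It read 3.26, 3.11, 3.34 and 3.28 in controls and 3.08, 3.33, 3.12 and 3.46 in dtg hearts. The difference was 0.0012 ± 0.12 (SE), with a 95% interval of -0.28 to 0.28. Of the fibrillar chains, this one gave the narrowest limit on a change in either direction.

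Col5a1 and Col5a2 encode type V chains, which sit in the core of type I fibrils and govern their diameter. Col5a1 read 0.31, 0.46, 0.72 and 0.78 in controls and 0.51, 0.78, 0.86 and 0.68 in dtg hearts, a difference of 0.14 ± 0.14 (SE). Slide accounted for 68.8% of its variance, and all 4 hearts of slide 2 lay above all 4 of slide 1. Col5a2 read -2.93, -3.24, -3.08 and -2.62 in controls and -3.32, -3.16, -3.17 and -2.54 in dtg hearts, with control 4 and dtg 4 highest. Col5a3, the third type V chain, ran the opposite way in the same hearts: 0.99 in control 4 and 0.82 in dtg 4 against 1.62 to 1.87 in the other 6. It falls outside the rule for named genes and was chosen after its values were seen.

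Col27a1, a fibrillar chain known from cartilage, was the fibrillar chain farthest from 0, with a difference of 0.21 ± 0.20 (SE). It read -3.67, -3.55, -3.51 and -4.40 in controls and -3.43, -3.59, -3.60 and -3.66 in dtg hearts. Control 4 alone was low, and without it the difference was 0.0064. The last measured fibrillar chain, Col11a2, ranged from -4.54 to -3.02 over the 8 hearts.

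**Figure D2:**
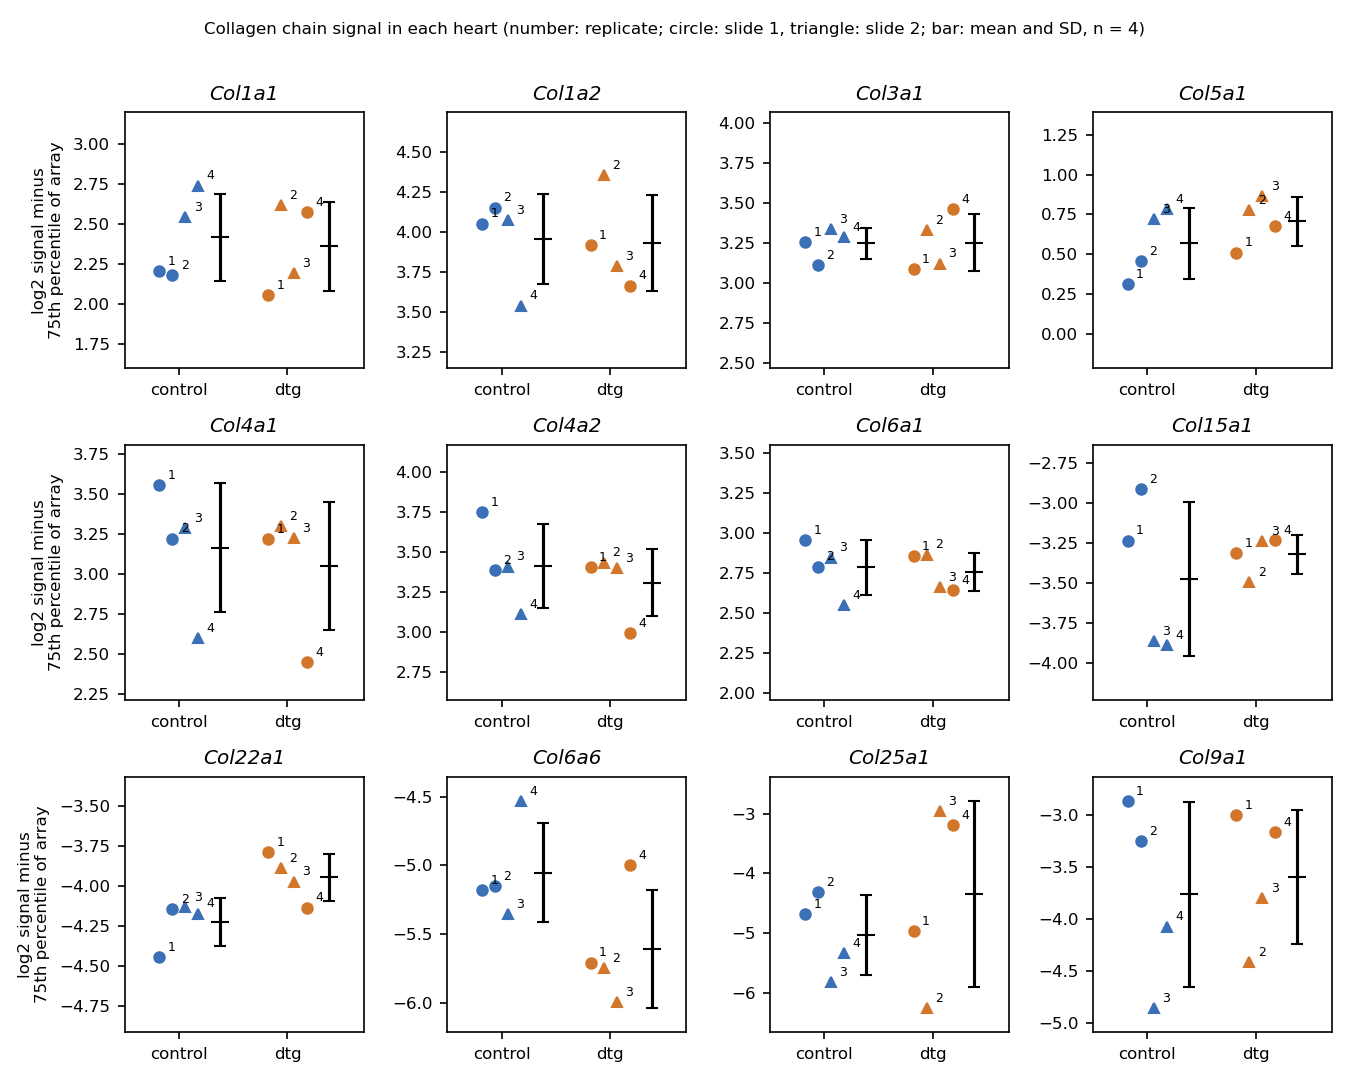
Signal of 12 chains in each heart, as log2 processed signal minus the 75th percentile of the array (y axis), for controls and dtg hearts (x axis); points are hearts, numbered by replicate, circles lie on slide 1 and triangles on slide 2, and bars give the mean and SD, n = 4. The groups overlap in every panel, and control 4 and dtg 4 sit lowest for Col1a2, Col4a1 and Col4a2.

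Basement membrane chains had a median difference of -0.059, with 1 of 6 higher and 5 lower in dtg hearts (55.4% of all features were higher), and no interval left out 0. The median changed sign with single hearts left out: it was 0.022 without control 1 and 0.0033 without control 2, and it reached -0.13 without dtg 1. The fibrillar median, too, ran from -0.034 without dtg 2 to 0.064 without dtg 4. The chains of the common type IV network are encoded by Col4a1 and Col4a2, whose products join in one molecule. Col4a1 read 3.56, 3.22, 3.29 and 2.60 in controls and 3.22, 3.30, 3.22 and 2.45 in dtg hearts, a difference of -0.12 ± 0.26 (SE). Col4a2 read 3.75, 3.38, 3.41 and 3.11 in controls and 3.41, 3.43, 3.40 and 2.99 in dtg hearts, a difference of -0.11 ± 0.17 (SE). Both chains had the same order at the ends: control 1 highest, control 4 next to lowest and dtg 4 lowest.

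The other type IV chains, encoded by Col4a3 to Col4a6, form networks best known from kidney, lung and smooth muscle. Col4a4 differed by -0.09 ± 0.17 (SE), and its values ran from -1.07 to -0.48. Col4a6 split by slide and not by group. Its 4 hearts on slide 1 read between -1.97 and -1.77 and its 4 on slide 2 between -2.96 and -2.78, so that 98.0% of its variance lay between slides. Over all features 0.668% had a share over 95%. A second kept probe of Col4a6 did not share the split: slide accounted for 0.0884% of its variance, and its highest values were -1.70 in control 4 and -1.96 in dtg 4.

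Of the beaded filament chains, Col6a1 and Col6a2 encode partners in type VI collagen, a link between cells and the surrounding matrix. Col6a1 read 2.95, 2.79, 2.85 and 2.55 in controls and 2.85, 2.87, 2.66 and 2.64 in dtg hearts, and its difference of -0.03 ± 0.12 (SE) had an interval of -0.31 to 0.25. Col6a2 read 0.92, 0.85, 0.90 and 0.72 in controls and 0.91, 0.85, 0.95 and 0.42 in dtg hearts, with dtg 4 lowest.

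Col6a6, a further type VI chain, was the chain with the smallest p among those lower in dtg hearts. It read -5.18, -5.15, -5.35 and -4.53 in controls and -5.71, -5.75, -5.99 and -5.00 in dtg hearts, with only dtg 4 reaching into the control range. The difference was -0.56 ± 0.26 (SE; limma adjusted p = 1.0), with an unadjusted p of 0.0611. Its probe was well above background in 3 controls and 1 dtg heart, so it was kept mainly through the group where it was higher. The second kept probe of Col6a6 pointed the other way, with a difference of 1.04 ± 0.59 (SE). The gene's direction therefore cannot be read from this array.

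Chains of fibril-associated collagens lie on the surface of fibrils, and in dtg hearts the mean was higher for 5 of 6 (median difference 0.086), where 55.4% of all features were higher. Among the 5, Col14a1 and Col16a1 were higher by only 0.0061 and 0.0077. Col14a1, which helps set fibril spacing, read -0.70, -0.59, -0.11 and 0.54 in controls and -0.24, -0.29, -0.47 and 0.16 in dtg hearts. Control 4 and dtg 4 were the highest, and the mean difference was 0.0061 ± 0.28 (SE). Within slide 1 the difference was 0.60 and within slide 2 it was -0.59.

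Col22a1, a chain found at tissue junctions such as that of muscle and tendon, had the smallest p of all 31. It read -4.45, -4.14, -4.13 and -4.17 in controls and -3.78, -3.89, -3.97 and -4.14 in dtg hearts. Only dtg 4 reached into the control range, just under control 3, and the difference was 0.28 ± 0.12 (SE; limma adjusted p = 1.0; unadjusted p of 0.0536), a 1.21-fold higher signal. It was higher in dtg hearts on both slides, by 0.33 and 0.22. A first scaling took the percentile over all spots, in which repeated probes count several times, and gave 0.28 with an unadjusted p of 0.0482 and no overlap between the groups. It was replaced, after its values were seen, by the percentile over probes. The filter over all 8 arrays also gave an unadjusted p under 0.05, of 0.0488, at the scaling used here. In both cases the adjusted p rounded to 1.0. Quantile normalization gave a difference of 0.10 and normexp background correction one of -0.049.

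Col9a1 and Col9a2 encode type IX chains, known from cartilage. Col9a1 read -2.86, -3.25, -4.86 and -4.07 in controls and -3.00, -4.41, -3.80 and -3.16 in dtg hearts, and 80.6% of its variance lay between slides, with all 4 hearts of slide 1 above all 4 of slide 2. Col9a2 differed by 0.31 ± 0.30 (SE). Control 3 was the lowest heart for both, at -4.86 and -4.05.

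Multiplexin chains sit at basement membranes and carry fragments that act on vessels. Col15a1 read -3.24, -2.91, -3.86 and -3.89 in controls and -3.31, -3.50, -3.24 and -3.23 in dtg hearts, a difference of 0.15 ± 0.23 (SE). The controls were split by slide and the dtg hearts were not, and its other 2 kept probes gave -0.08 and -0.25. Col18a1, the source of endostatin, read 0.04, -0.28, 0.69 and 0.84 in controls and 0.0006, 0.38, 0.20 and 0.31 in dtg hearts. Its difference was -0.10 ± 0.25 (SE), and controls 3 and 4 held its highest values.

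Col8a1, a network-forming chain of vessel walls, differed by 0.05 ± 0.25 (SE), and slide accounted for 76.8% of its variance. Of the transmembrane chains, Col23a1 differed by 0.15 ± 0.13 (SE). Col25a1 had the largest SD over the 8 hearts, 1.17, but only 4 of its 8 values came from arrays where the probe was well above background. It read -4.68, -4.32, -5.82 and -5.34 in controls and -4.97, -6.26, -2.96 and -3.19 in dtg hearts, with dtg 3 and dtg 4 high and dtg 2 lowest of all. Of the arrays with a signal well above background 2 were in each group, and the difference was 0.69 ± 0.74 (SE). Its second kept probe gave 0.19. Col26a1, a chain of uncertain class, differed by -0.19 ± 0.18 (SE).

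The 8 measured chains outside the rule for named genes (Col4a3, Col4a5, Col5a3, Col7a1, Col8a2, Col11a2, Col16a1 and Col20a1) differed by -0.12 to 0.27, and none of them had an interval that left out 0. In all, 11 chains had several kept probes, and in 5 of them (Col6a6, Col8a2, Col15a1, Col16a1 and Col23a1) the probes differed in sign.

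The proteins that modify, fold, export, trim, crosslink and bind collagens were taken as 5 further lists of 51 genes, of which 46 were measured. In these lists 0 genes passed the adjusted threshold and 0 had an unadjusted p under 0.05, with 15 higher and 31 lower in dtg hearts. The shares over all features were 0.746% at that p and 55.4% higher. As for the chains, these counts of direction were taken at the 75th percentile scaling. Of the 15 hydroxylation and glycosylation genes 4 were higher and 11 lower, and P3h1, a prolyl 3-hydroxylase, differed by -0.30 ± 0.19 (SE). Colgalt1, a collagen galactosyltransferase, differed by 0.15 ± 0.13 (SE). Of the 12 folding and export genes 3 were higher and 9 lower. Sec23a, a coat protein of export vesicles, differed by 0.21 ± 0.17 (SE), and Mia3, the receptor that loads collagen into them, by 0.13 ± 0.13 (SE).

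Of the 6 procollagen processing genes 4 were higher and 2 lower. The propeptide-cleaving proteases Adamts14 and Bmp1 differed by 0.10 ± 0.09 and 0.07 ± 0.11 (SE). Of the 6 crosslinking genes 1 was higher and 5 lower. The lysyl oxidases Loxl1 and Lox differed by -0.12 ± 0.14 and -0.15 ± 0.29 (SE), where Lox was well above background on only 4 arrays, 2 per group. Of the 7 receptor genes 3 were higher and 4 lower, and Itgb1, the shared beta chain of the collagen-binding integrins, differed by -0.18 ± 0.14 (SE). Gp6, a platelet receptor, differed by 0.51 ± 0.42 (SE), with a probe well above background in 3 controls and 4 dtg hearts. Its difference was -0.012 on slide 1 and 1.03 on slide 2.

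Over the 8 hearts the median SD of a chain was 0.27, against 0.25 for all features. In 6 of 31 chains (19.4%) slide accounted for over 60% of the variance, near the 17.0% of all features. Set within slides, with 2 hearts per group on each, the difference pointed opposite ways on slide 1 and slide 2 in 21 of 31 chains (67.7%), and in 66.9% of all features. Col4a1 was -0.56 on slide 1 and 0.32 on slide 2, Col1a2 -0.31 and 0.26, and Col1a1 0.12 and -0.24. Both slides gave a higher mean in dtg hearts for 5 chains and a lower one for 5. By class these were 2 and 0 of 8 fibrillar chains, 0 and 2 of 6 basement membrane chains and 3 and 3 of 17 others, and 4304 and 2773 of 21406 features.

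**Figure D3:**
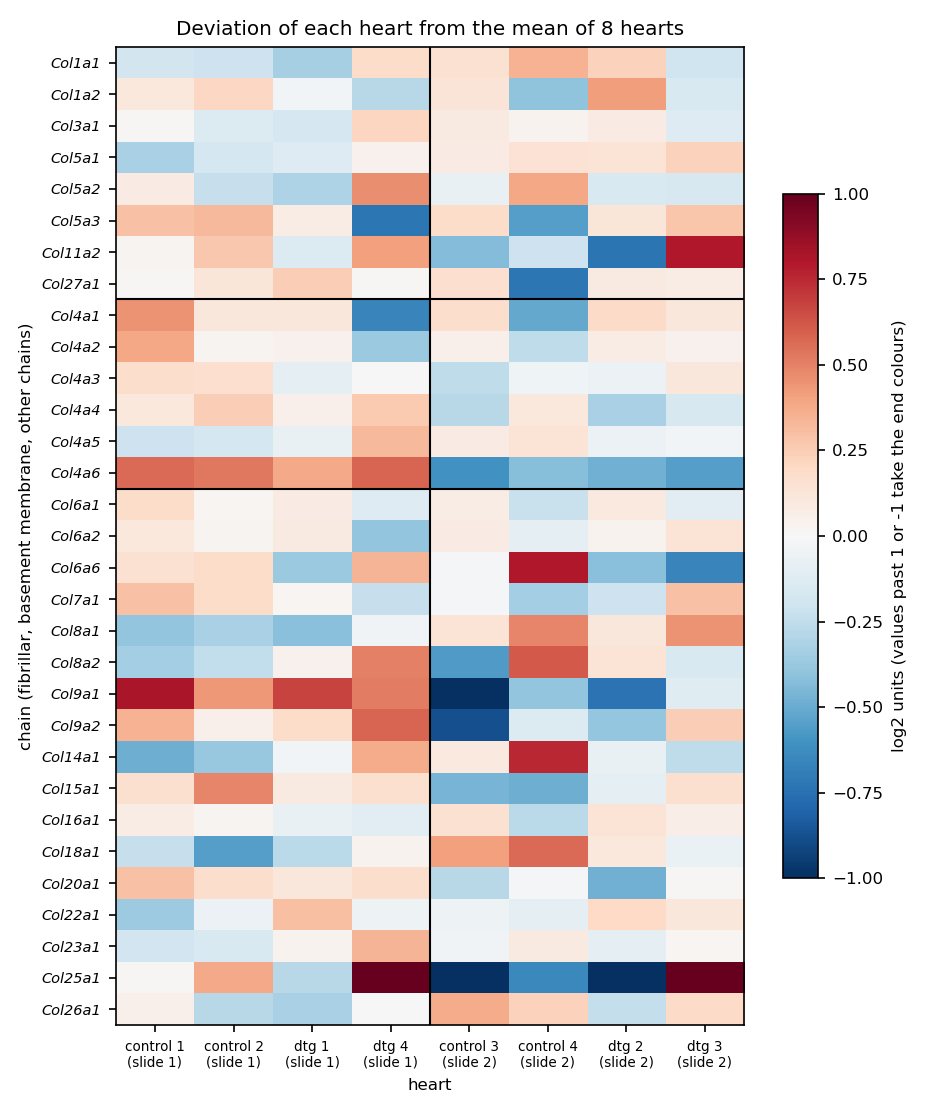
Deviation of each heart (columns, ordered by slide) from the mean of the 8 hearts for each of the 31 chains (rows, by class), as a colour in log2 units, where values past 1 or -1 take the end colours. Col4a6 changes sign between the slides, and control 4 and dtg 4 lie below the mean for Col1a2, Col4a1, Col4a2 and Col5a3 and above it for Col5a2, Col8a2 and Col14a1.

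Control 4 and dtg 4, which lie on different slides, shared a pattern that was picked out after the values were seen. They were the 2 lowest of the 8 hearts in 8 chains (25.8%; Col1a2, Col4a1, Col4a2, Col5a3, Col6a1, Col6a2, Col7a1 and Col16a1), and in 12.7% of all features. They were the 2 highest in 6 chains (19.4%; Col4a5, Col5a2, Col6a6, Col8a2, Col14a1 and Col23a1), and in 15.0% of all features. The fibroblast gene Dcn read 6.03 in control 4 and 6.13 in dtg 4 against 6.60 to 7.11 in the others. The endothelial receptor gene Kdr read 1.92 and 1.88 against 2.25 to 3.12. Cdh5, another endothelial gene, was highest of the 8 hearts in dtg 4, at 2.64, and read 2.24 in control 4, while Pecam1 read 0.14 in control 4 and -0.08 in dtg 4 within a range of -0.12 to 0.44. Lum, another fibroblast gene, was highest in these hearts, at 3.68 and 3.13. All of these single genes were picked with their values already known. The arrays of control 4 and dtg 4 also had the lowest 75th percentile intensities, at 679.7 and 704.4, against 793.7 to 946.0 on the others. Whether this bears on the pattern was not tested.

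Marker sums add signals on a linear scale, so the brightest probes of a list weigh most and its other markers need not follow the sum. The summed fibroblast signal, with 13 of 13 markers measured, was 253 to 276 in controls (261 in control 4) and 230 to 275 in dtg hearts (230 in dtg 4, the lowest of the 8 hearts). The summed endothelial signal, with 12 of 12 markers, was 105 to 137 (137 in control 4) and 105 to 123, with dtg 4 near the lower end. Atrial markers, with 8 of 8 measured, summed to 63.5 to 686 in controls and 74.6 to 528 in dtg hearts, and control 4 and dtg 4 held the highest sum of their group. Epicardial markers also had the highest sum of each group there, at 4.85 and 3.60, over ranges of 2.14 to 4.85 and 2.10 to 3.60. Control 3 read 513 for the atrial sum, just under dtg 4, and 4.08 for the epicardial sum, above dtg 4. The sum of the skeletal muscle list was lowest in these hearts, at 69.7 and 44.8 against 75.1 to 103. Only 3 of its 6 genes were measured, Acta1 and Ckm among them, while Myh4, Myh1 and Actn3 were not kept. Whether this signal came from skeletal muscle or from cardiomyocytes was not tested. Between groups, 0 of 8 atrial and 0 of 6 epicardial markers had a higher mean in dtg hearts, where 55.4% of all features were higher. Markers of a tissue may vary together, so these are not counts of independent genes. Their median differences were -0.55 and -0.27, and 0 of these markers passed the adjusted threshold or an unadjusted p under 0.05 (limma). Acta2, a smooth muscle gene chosen after its values were seen, was the one marker of all lists with an unadjusted p under 0.05 (limma), of 0.00843. Of all features, 0.746% had an unadjusted p under 0.05. Acta2 was picked as the smallest p among the markers of 11 lists. It read 4.11, 3.82, 4.01 and 3.97 in controls and 3.66, 3.49, 3.55 and 3.72 in dtg hearts, without overlap (0.519% of all features), a difference of -0.37 ± 0.11 (SE; limma adjusted p = 1.0). The part of atrial tissue and of the cell types in the chain values was not tested, and in whole hearts fewer cells of a type and less RNA per cell cannot be told apart.

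Pairs of genes were followed across hearts, 13 in all, of which Col4a3 with Col4a4 and Col4a5 with Col4a6 were added after the data were seen. For Col4a1 and Col4a2, control 4 and dtg 4 stood apart from the rest, so the value is given over the other 6 hearts. There Pearson's r was 0.981 (exact permutation p = 0.00556, adjusted over the 13 pairs 0.0361) and Spearman's rho was 0.83 (exact permutation p = 0.0583). This value rests on control 1, since the other 5 hearts lay within 3.22 to 3.30 for Col4a1 and 3.38 to 3.43 for Col4a2. Control 4 and dtg 4 lay low for both genes, so the same 3 hearts set the ends of both chains. Over the same 6 hearts Col4a5 and Col4a6 ran in opposite directions, with r of -0.859 (exact permutation p = 0.00139, the smallest that 6 hearts allow, adjusted 0.0181) and rho of -1.0 (exact permutation p = 0.00278). Col4a6 is the chain that split by slide, with 3 of the 6 hearts on each, and over all 8 hearts r was -0.168, or 0.249 with values centred on their slide. These values belong to the brighter kept probe of Col4a6. The second kept probe, without that split, was highest in control 4 (-1.70) and dtg 4 (-1.96), the 2 hearts highest for Col4a5. The direction of this pair therefore depends on the probe. Col6a1 and Col6a2 had r of -0.26 over those 6 hearts (exact permutation p = 0.656) and 0.556 over all 8 (exact permutation p = 0.143), so their positive value rests on control 4 and dtg 4. No other pair without Col1a1 passed the threshold, each with an adjusted exact permutation p of 0.831 once its 2 farthest hearts were left out. The difference between the chains within a heart (log2 Col4a1 minus Col4a2) was -0.12 to -0.19 in 6 hearts and -0.51 and -0.54 in control 4 and dtg 4. In those hearts Col4a1 was thus further below its usual level than Col4a2.

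Col1a1 values formed 2 sets of 4 hearts, at 2.06 to 2.20 (controls 1 and 2, dtg 1 and 3) and at 2.54 to 2.74 (controls 3 and 4, dtg 2 and 4). Each set is too small for a correlation, so none is given for the 7 pairs with Col1a1. Over all 8 hearts their lowest adjusted exact permutation p of Pearson's r was 0.0657, for Postn, a gene of the fibroblast list. With the 2 farthest hearts of each pair left out, the lowest was 0.187, for Col3a1. The 4 hearts with high Col1a1 were the 4 with the highest Col3a1. For Col1a2, the partner of Col1a1 in type I collagen, only 2 of them were among the 4 highest, and control 4 had the highest Col1a1 and the lowest Col1a2. The log2 difference of Col1a1 minus Col1a2 was -0.80 in control 4 and -1.09 in dtg 4 and -1.97 to -1.53 in the others. It did not separate the groups, with -1.54 ± 0.53 in controls and -1.57 ± 0.34 in dtg hearts (SD, n = 4 each; two-sided exact permutation p = 0.886, where 0.0286 is the smallest possible). Col1a1 minus Col3a1 gave -0.83 ± 0.22 and -0.89 ± 0.13 (exact permutation p = 0.714), and Col4a1 minus Col4a2 gave -0.25 ± 0.18 and -0.26 ± 0.19 (exact permutation p = 0.743).

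**Figure D4:**
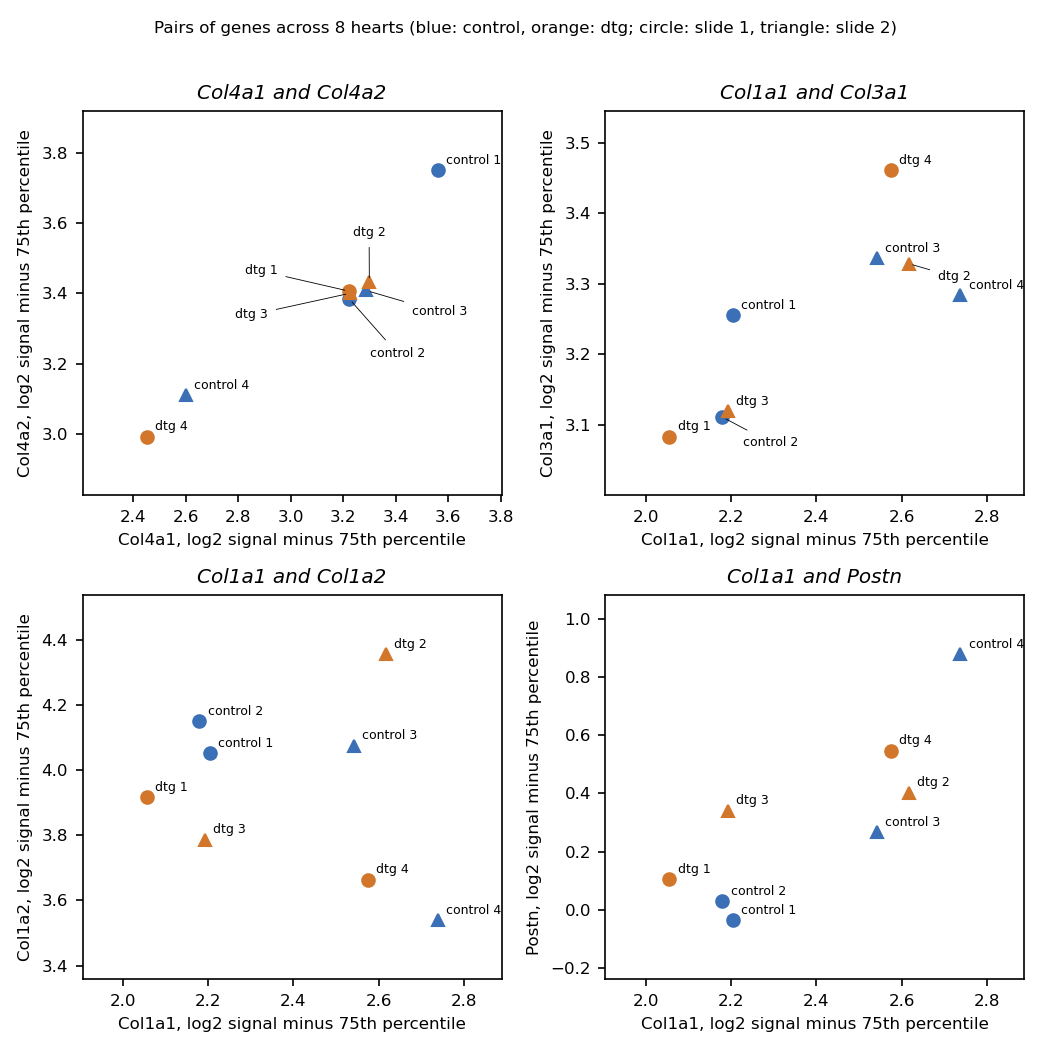
Each heart's log2 signal minus the 75th percentile for 4 pairs of genes (first gene on the x axis, second on the y axis); blue points are controls, orange points dtg hearts, circles slide 1 and triangles slide 2. Control 4 and dtg 4 are lowest for both Col4a1 and Col4a2, while Col1a1 falls into 2 sets of 4 hearts that hold both groups.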

How the data were processed

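The members, lists and rules were chosen with earlier results of these data known. Each of the 8 heart samples was labelled (Cy3, 100 ng of total RNA) and hybridised to a 1-colour array. Agilent Feature Extraction 10.7.3.1 produced the spot tables, per the submitters' processing notes. The authors deposited these tables, whose processed signal is an intensity on a linear scale after local background treatment, and also a table of log2 values. The latter matched quantile-normalized log2 signal centred per probe (r of 1 per array, column medians between -0.0325 and 0.0323). Which tool made it is not given in the labels used here. The array annotation names mm9, so coordinates are given only for RefSeq promoter sequences (GRCm38.p6).

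Control spots and outlier spots were dropped, log2 values of repeated spots were averaged, and the 75th percentile over probes was subtracted per array. Of 39429 probes, 26366 were named through RefSeq accessions and 26118 passed the filter of 4 arrays well above background. Taking the brightest probe per gene left 21434 features. Differences are dtg minus control from limma 3.58.1 (lmFit and eBayes without covariates, in R 4.3.3), with Benjamini-Hochberg adjustment over all features, and the fit was tested on simulated data. The genes described were the main cardiac chains, the 4 chains per direction with the smallest p, any without overlap, the 3 with the largest SD, and 2 genes per pathway list. Alternatives were normexp (offset 50, with and without dark spots), quantile and median scaling, the percentile over all spots (added after its values were seen), other filters and probe rules, the authors' values, blocks, single slides and left-out samples. The number of arrays limits the precision.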

Additional observations from a re-analysis of the deposited data

Results flagged for a closer look

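In each of the 31 chains the highest and lowest heart of each group of 4 was set against the others by Dixon's test at the 95% level. Of 62 groups examined, 6 held a heart that stood apart. The nominal rate is about 1 in 20, but chains that vary together, such as Col4a1 and Col4a2, are not independent. The share over all features was not computed. Over all features, control 4 was the highest control in 33.2% and the lowest in 29.6%. For dtg 4 among dtg hearts these shares were 37.0% and 23.2%. In control 4, Col1a2 was 3.54 against 4.05 to 4.15 in the other controls, and Col5a3 was 0.99 against 1.72 to 1.87. In dtg 4, Col4a1 was 2.45 against 3.22 to 3.30 in the other dtg hearts, Col4a2 was 2.99 against 3.40 to 3.43, and Col4a5 was high, at 0.54 against 0.15 to 0.19. In control 1, Col22a1 was -4.45 against -4.17 to -4.13, and without that heart its difference between groups was 0.20. Of the 6 values, 2 came from control 4, 3 from dtg 4 and 1 from control 1.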

How the results depend on the processing

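Under the 14 alternatives and the 8 fits that each left out a heart, 0 chains passed the adjusted threshold (limma). The count at an unadjusted p under 0.05, 0 as reported, was 1 with the percentile over all spots and with the filter over all 8 arrays (Col22a1), and 1 with the replicate block and on slide 2 alone (Col6a6). It was 2 on slide 1 alone (Col8a2, Col14a1) and 0 to 2 when a heart was left out. With control 4 and dtg 3 and 4 dropped and slide as a block, it was 4 (Col6a6, Col8a2, Col22a1, Col25a1). Of all 21434 features, 724 had such a p on slide 1 alone and 495 on slide 2 alone. With control 4 and dtg 3 and 4 dropped, 665 had one, and 98 to 331 when a heart was left out. The percentile over all spots gave 163, and the filter over all 8 arrays 136 of 18376. With no filter on dim probes, 24 of 42 chains were higher in dtg hearts, where 15 of 31 were as reported. Over all features, 20256 of 32594 were higher without the filter and 11865 of 21434 with it. The replicate numbers were not taken as pairs: deviations of same-numbered hearts correlated at 0.542, -0.545, 0.152 and 0.161, and not every heart correlated best with its own number. These values cannot exclude a pairing, since slide may also enter them: control 3 and dtg 2, both on slide 2, correlated at 0.701. With the replicate block, 276 of all features had an unadjusted p under 0.05, against 160.

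Among the 23 chains named by the rule, 40 of 320 values under alternatives changed sign, and 0 of the 320 passed the adjusted threshold. The cause was not tested. With normexp as planned, whose median SE over all features was 0.40 against 0.18, 14 chains did: Col1a1 (0.18), Col1a2 (0.21), Col4a1 (0.13), Col4a2 (0.14), Col6a1 (0.22), Col6a2 (0.064), Col9a1 (-0.19), Col9a2 (-0.036), Col15a1 (-0.15), Col18a1 (0.045), Col22a1 (-0.049), Col23a1 (-0.046), Col25a1 (-0.013) and Col27a1 (-0.15). With dark spots left out only Col14a1 did (-0.0023). Col3a1 was -0.0034 in the authors' values, -0.0021 with quantile normalization and -0.078 with median scaling, where Col8a1 was -0.028 and Col14a1 -0.073. The mean of all kept probes gave 0.24 for Col6a6 and -0.058 for Col15a1. Slide 1 alone gave 0.12 for Col1a1, 0.15 for Col5a2, -0.029 for Col9a1, -0.20 for Col15a1 and 0.27 for Col18a1. Slide 2 alone gave 0.26 for Col1a2, -0.087 for Col3a1, 0.32 for Col4a1, 0.16 for Col4a2, 0.065 for Col6a1, 0.088 for Col6a2, -0.030 for Col8a1, -0.59 for Col14a1 and -0.068 for Col23a1. With control 4 and dtg 3 and 4 dropped, Col1a2 was 0.015, Col3a1 -0.061, Col8a1 -0.041 and Col25a1 -0.46. Centred on slide, r of Col4a5 and Col4a6 was 0.249 where it was -0.168.

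Of the named chains, 14 changed sign when a heart was left out in turn: leaving it out moved Col14a1 over -0.15 to 0.26, Col18a1 over -0.30 to 0.073, Col1a1 over -0.14 to 0.051, Col1a2 over -0.17 to 0.066, Col3a1 over -0.070 to 0.056, Col4a1 over -0.31 to 0.081, Col4a2 over -0.21 to 0.0072, Col4a4 over -0.20 to 0.0065, Col4a6 over -0.24 to 0.15, Col5a2 over -0.25 to 0.034, Col6a1 over -0.11 to 0.028, Col6a2 over -0.12 to 0.055, Col8a1 over -0.089 to 0.22 and Col9a1 over -0.20 to 0.46. The other 9 kept their sign over ranges of 0.23 to 1.33 (Col25a1), 0.073 to 0.49 (Col9a2), 0.017 to 0.34 (Col15a1), 0.0064 to 0.30 (Col27a1), 0.054 to 0.21 (Col5a1), 0.057 to 0.20 (Col23a1), 0.20 to 0.34 (Col22a1), -0.31 to -0.094 (Col26a1) and -0.76 to -0.38 (Col6a6). The class medians ran over -0.034 to 0.064 (fibrillar), -0.13 to 0.022 (basement membrane) and -0.013 to 0.060 (others). On slide 1 alone they were 0.0755, -0.14 and -0.029, and on slide 2 alone 0.17, 0.079 and 0.065. An unadjusted p under 0.05 came up without control 3 (Col6a6), without control 4 (Col8a2), without dtg 2 (Col25a1) and without dtg 4 (Col22a1 and Col6a6).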
